A study of Homo sapiens with 20 samples.

Results

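The genes described here are 10 feedback genes of the MAPK pathway: the phosphatases DUSP4, DUSP5 and DUSP6, the signaling inhibitors SPRY1, SPRY2, SPRY4, SPRED1 and SPRED2, and the early response genes PHLDA1 and IER3. They were taken by symbol from the 57773 genes of each count table, and all 10 were present in both. The group was selected on the doxycycline contrast of DUSP4, whose mRNA level is higher with doxycycline than without it in all 4 stable lines. The values of the doxycycline contrast therefore belong to the choice of the genes and are given as a description, without a test. The siRNA contrast was not part of this rule and was tested, although the genes were chosen with earlier results of these data known.

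Growth factor receptors signal through RAS, RAF and MEK to the kinases ERK1 and ERK2, the MAP kinases of this pathway. Active ERK enters the nucleus and raises transcription of early response genes, among them the inhibitors of the pathway itself. The dual-specificity phosphatases (DUSP) remove the activating phosphates from ERK, and the Sprouty (SPRY) and SPRED proteins act upstream on receptor and RAS signaling, so that mRNA of these genes is widely read as an output of ERK signaling.

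RNA-seq was performed on LNCaP, a human prostate adenocarcinoma line, in 20 samples. In the siRNA experiment, LNCaP cells received 20 nmol/L of a nontarget control pool (siNTC) or of an siRNA pool against EHMT1 (siEHMT1) for 2 days, with 2 samples in each group. In the induction experiment, 4 LNCaP lines carried a V5-tagged EHMT1 open reading frame under a tetracycline-inducible promoter, either wild type (WT) or with an arginine in place of a lysine (K450R, K451R, or both in K450RK451R). The cells of each line were left untreated (Veh) or given 0.25 µg/mL of doxycycline for 2 days (Dox), with 2 columns of counts in each condition. The lines were made by lentiviral infection and puromycin selection, and whether each line is a clone or a pool is not given in the sources used here. No Dox-treated line without the EHMT1 insert was analysed here, so effects of Dox itself and of induced EHMT1 cannot be told apart. EHMT1 (also called GLP) is a histone H3 lysine 9 methyltransferase.

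The total counts were 5593400 to 12438006 in the siRNA samples and 8436791 to 12407739 per stable-line condition. The 2 columns of each stable-line condition differed by no more than counting noise (chi-square per degree of freedom 0.995 to 1.02), so they were summed and counted as 1 sample per condition. The siRNA samples differed more within a group, and the second siNTC sample held 8.39% of its counts in the ribosomal RNA-like pseudogene AC010970.2, against 0.643% in the first. EHMT1 fell from 87.8 and 83.6 to 29.2 and 30.7 CPM (counts scaled to library size with TMM factors) with siEHMT1, and the 4 Dox conditions were at 663 to 842 CPM against 71.7 to 88.9 CPM with Veh. Luminal prostate markers were high in all samples (KLK3 at 2920 CPM or more), while the basal markers KRT5 and TP63, the stromal marker COL1A2 and the leukocyte marker PTPRC had no counts. Of the same list, COL1A1 (15.3 to 40.8 CPM), VWF (3.35 to 16 CPM), ACTA2 (2.80 to 8.25 CPM) and KRT14 (0.225 to 1.52 CPM) had counts in all samples. In bulk RNA, a change in every cell and a change in some of the cells cannot be told apart.

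DUSP4 was by far the most abundant of the 10 mRNAs in these cells. Scaled by exon length, its level was 18.5 to 22.3 CPM per kb (median 20.1, n = 4) in the siRNA samples and 16.5 to 32.4 CPM per kb (median 22.4, n = 8) in the stable-line conditions. In the stable lines DUSP5 came next with a length-scaled median of 5.49 CPM per kb, followed by SPRED2 (3.16), IER3 (1.70), SPRY1 (1.49) and SPRED1 (1.09). The ranges of these genes from DUSP5 down overlapped between neighbors in that order, whereas the lowest DUSP4 value lay above the highest DUSP5 value of 10.4 CPM per kb. DUSP6, PHLDA1, SPRY2 and SPRY4 formed a low group with medians of 0.164, 0.134, 0.120 and 0.0317 CPM per kb. DUSP6 and SPRY4, which are commonly used as markers of ERK output, were thus close to the detection limit in the stable lines. The lengths are exon lengths of the current annotation, which may differ from the annotation used for counting.

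**Figure D1:**
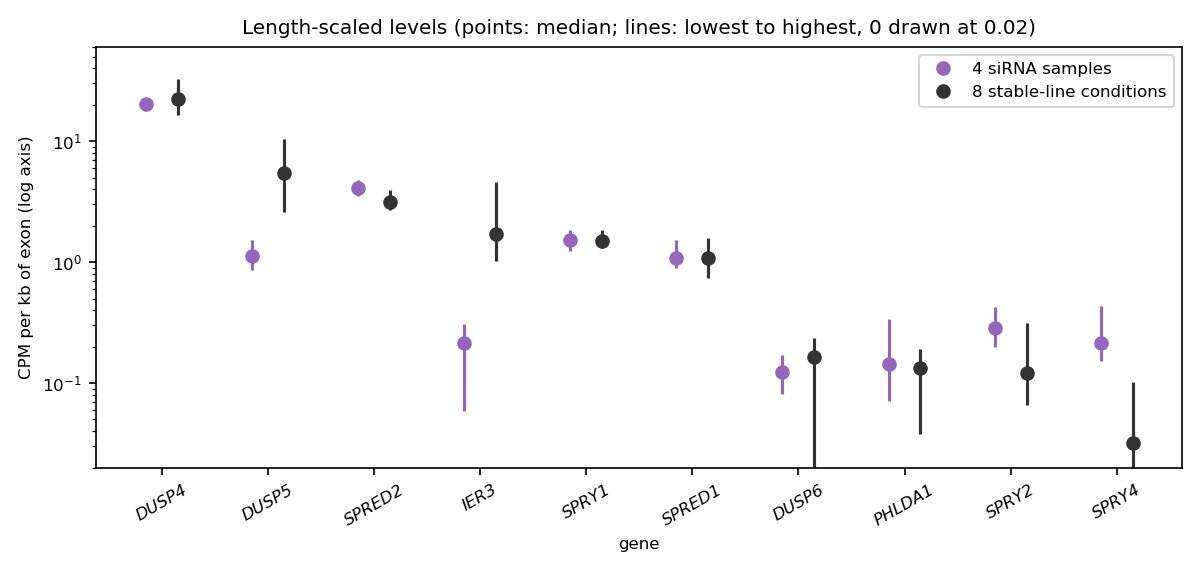
Length-scaled level of each gene, in CPM per kb of exon on a log axis, for the 4 siRNA samples (purple) and the 8 stable-line conditions (black). Points are medians and lines run from the lowest to the highest value, with values of 0 drawn at 0.02. DUSP4 stands above all other genes in both experiments (medians 20.1 and 22.4), and DUSP5 and IER3 are higher in the stable lines than in the siRNA samples.

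The siRNA samples and the stable lines were counted in separate tables and normalized separately, and their levels are set side by side without a test. DUSP5 was at 2.17 to 3.83 CPM in the siRNA samples and at 6.59 to 26.3 CPM in the stable-line conditions. IER3 had 1 to 4 counts in each siRNA sample but 13 to 73 counts in each stable-line condition. SPRY4 showed the opposite order, at 0.988 to 2.83 CPM in the siRNA samples and 0 to 0.676 CPM in the stable-line conditions. DUSP4, SPRED1, SPRED2 and SPRY1 overlapped between the experiments. The experiments differ in cell line derivation and transfection and have separate count tables, and these cannot be told apart.

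**Figure D2:**
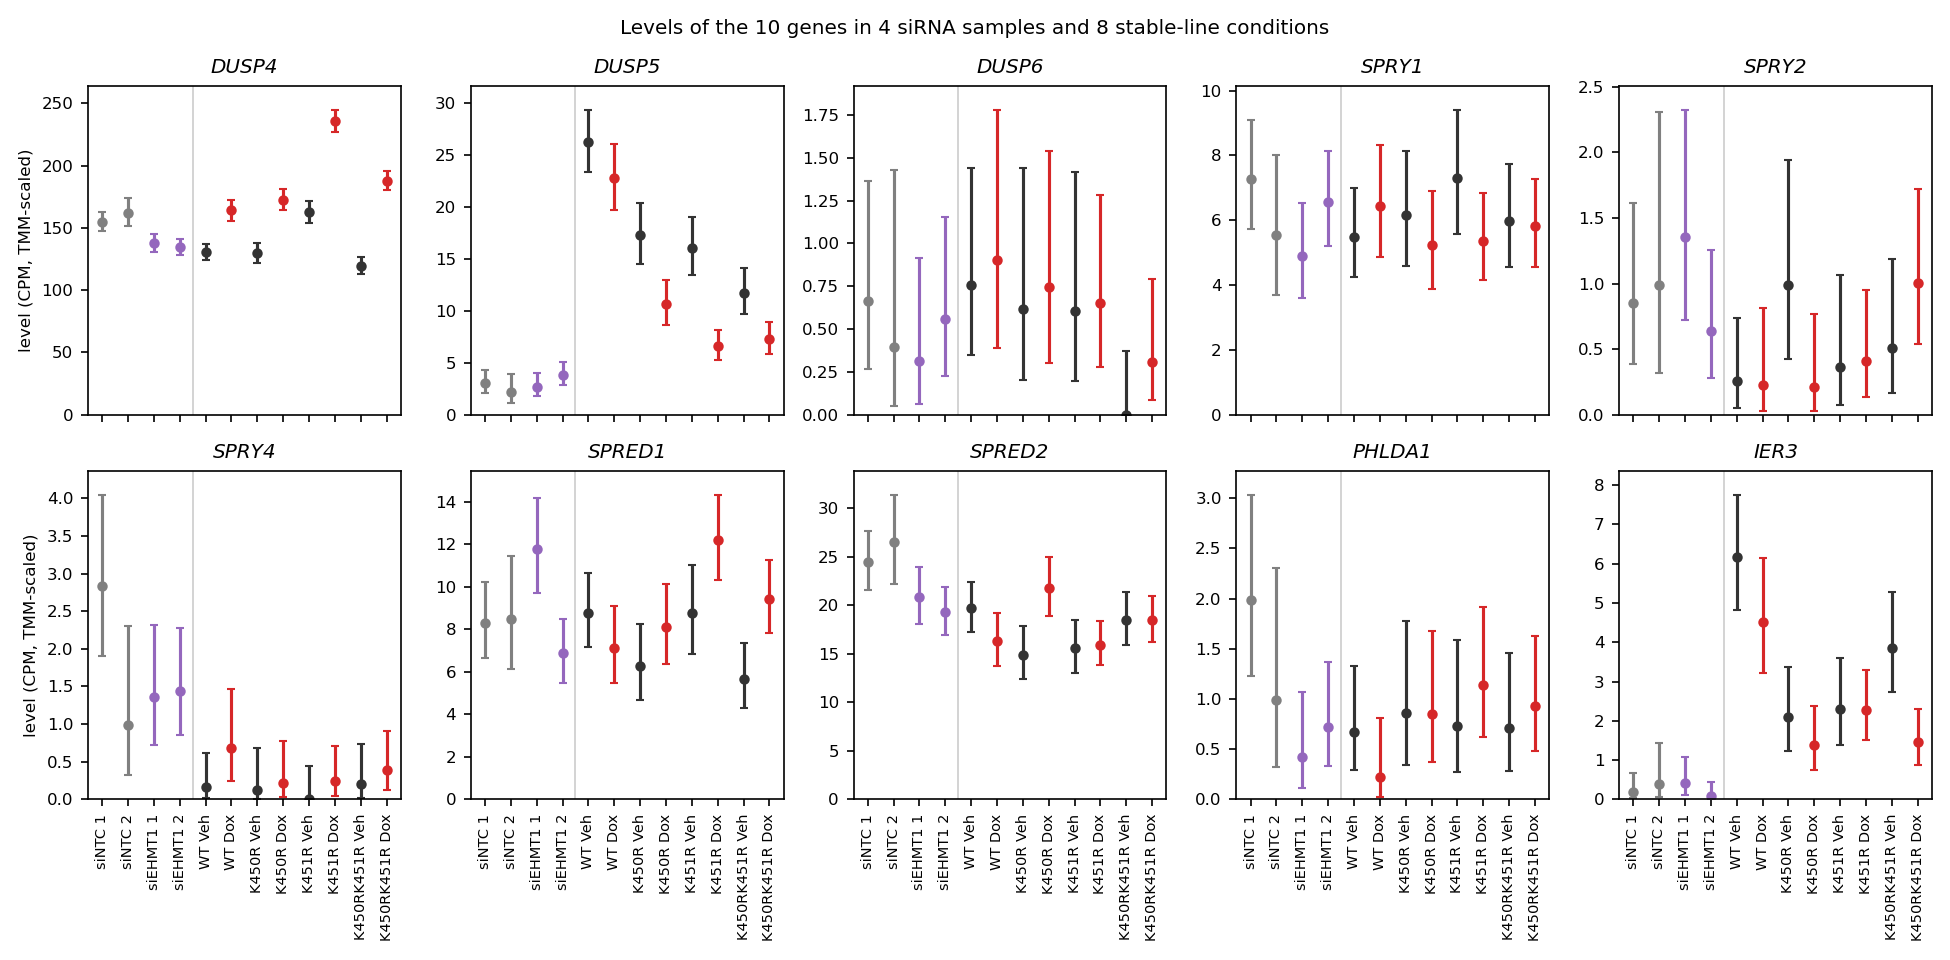
Level of each gene (CPM, TMM-scaled, vertical axis from 0) in the 2 siNTC (gray) and 2 siEHMT1 (purple) samples and, right of the line, in each stable-line condition with Veh (black) or Dox (red). Bars are exact 95% Poisson intervals, which cover counting error only. DUSP4 is higher with Dox than with Veh in each line (164 against 130 CPM in WT, 188 against 120 CPM in K450RK451R), and DUSP5 is lower in each line.

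The phosphatases moved in opposite directions with Dox. DUSP4 (ENSG00000120875, chromosome 8 from 29190581 to 29208201 in GRCh37) encodes a nuclear phosphatase of ERK and related MAP kinases. Its level with Veh and with Dox was 130 and 164 CPM in WT, 130 and 173 CPM in K450R, 163 and 236 CPM in K451R, and 120 and 188 CPM in K450RK451R. All 4 Dox values lay above all 4 Veh values, although the highest Veh value (162.5 CPM, K451R) was close to the lowest Dox value (164.0 CPM, WT). Of the 14105 genes tested in these conditions, 2.27% were separated in this way with Dox above Veh, and since DUSP4 was chosen for its rise, nothing is read from this.

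The log2 fold change of DUSP4 was 0.33 in WT (95% counting interval 0.23 to 0.44), 0.41 in K450R (0.30 to 0.53), 0.54 in K451R (0.44 to 0.63) and 0.65 in K450RK451R (0.55 to 0.75). The mean over the lines was 0.48 ± 0.14 (SD, n = 4). The interval of K450RK451R did not overlap those of WT and K450R. With 1 sample per condition these intervals cover counting error only, and whether the lines differ in their response was not tested. The EHMT1 level with Dox was 797 CPM in WT, 842 CPM in K450R, 725 CPM in K451R and 662.5 CPM in K450RK451R. Its relation to the DUSP4 values was not tested. The uninduced lines also differed: the DUSP4 level of K451R with Veh was above the other 3 lines, and its counting interval (153.9 to 171.5 CPM) did not overlap theirs.

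DUSP5 (ENSG00000138166, chromosome 10 from 112257665 to 112271291 in GRCh37), a nuclear phosphatase specific for ERK, was lower with Dox in all 4 lines. It was at 26.3 and 22.8 CPM in WT, 17.3 and 10.7 CPM in K450R, 16.05 and 6.59 CPM in K451R, and 11.8 and 7.28 CPM in K450RK451R, with Veh and Dox. The log2 fold changes were −0.21, −0.69, −1.28 and −0.69 in that order (mean −0.72 ± 0.44, SD, n = 4). The counting interval excluded 0 in the 3 mutant lines and included it in WT (−0.47 to 0.055), and whether the lines differ in this was not tested. The lines differed already with Veh, with WT highest and K450RK451R lowest, and Veh and Dox values overlapped across lines. DUSP6, the cytoplasmic ERK phosphatase, had 0 to 9 counts in each of the 8 conditions, at which depth a Dox difference was not detectable.

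Among the Sprouty and SPRED genes, SPRED1 was closest to the DUSP4 pattern. SPRED1 (ENSG00000166068, chromosome 15 from 38545037 to 38649450 in GRCh37) binds RAS and the RAS GTPase activator NF1 and dampens RAF activation. It was at 8.78 and 7.10 CPM in WT, 6.29 and 8.11 CPM in K450R, 8.75 and 12.2 CPM in K451R, and 5.68 and 9.45 CPM in K450RK451R, with Veh and Dox. The log2 fold change was −0.31 in WT and 0.37, 0.48 and 0.73 in K450R, K451R and K450RK451R. It was thus higher with Dox in the 3 mutant lines and lower in WT. The counting interval lay above 0 in K451R (0.065 to 0.91) and K450RK451R (0.27 to 1.22). It included 0 in K450R (−0.16 to 0.91) and in WT (−0.78 to 0.16). With 1 sample per condition these intervals cover counting error only, and whether WT differs from the mutant lines was not tested. Across the 8 conditions the log2 CPM of SPRED1 and DUSP4 had a Pearson r of 0.844, the highest among the 5 other members that were tested, and DUSP5 had the lowest (−0.665). These are descriptions over 8 conditions from 4 lines that share parental cells and library type.

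The start region of SPRED1 is shown because it is the member nearest in pattern to DUSP4. RefSeq promoter sequences were matched by symbol for 7 of the 10 genes, and DUSP4, DUSP5 and IER3 had no entry. The 250 bases before the SPRED1 start were found once in GRCh37, on the plus strand at chr15:38544787-38545036, outside its annotated exons. They are given 5′ to 3′, with the match to the GC box in capitals.
SPRED1: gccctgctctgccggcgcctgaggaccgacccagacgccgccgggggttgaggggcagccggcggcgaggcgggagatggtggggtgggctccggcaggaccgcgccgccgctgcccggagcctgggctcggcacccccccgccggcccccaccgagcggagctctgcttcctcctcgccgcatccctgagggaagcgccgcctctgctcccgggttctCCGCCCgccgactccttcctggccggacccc
Both strands of this window were searched in the 7 genes for motifs bound by factors downstream of ERK or cyclic AMP, and separately for the GC box. The ETS core (CCGGAAG), the AP-1 site (TGANTCA), the CRE (TGACGTCA) and the CArG box had no match in any of the 7, while they occur in 8.82%, 6.60%, 1.77% and 1.14% of 27305 such windows. The GC box (GGGCGG) matched in SPRED1, SPRY2, SPRY4 and PHLDA1, and in 42.3% of all windows. These counts describe the letters in this window only.

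SPRED2, a second SPRED protein, was the more abundant of the pair in CPM per kb. With Dox its counting interval excluded 0 in K450R alone, where it went from 14.9 to 21.8 CPM (log2 fold change 0.54, interval 0.21 to 0.88). In the other lines it was at 19.7 and 16.3 CPM (WT), 15.6 and 15.95 CPM (K451R) and 18.5 and 18.4 CPM (K450RK451R), with Veh and Dox. SPRY1, an inhibitor of receptor tyrosine kinase signaling, lay between 5.23 and 7.29 CPM in all 8 conditions, and its counting interval included 0 in each line. SPRY2 had 2 to 13 counts and SPRY4 0 to 6 counts per condition, so no Dox difference could be detected in either.

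The early response genes were low. IER3 (ENSG00000137331, chromosome 6 from 30710976 to 30712325 in GRCh37), a short-lived transcript whose protein affects cell survival, was at 6.16 and 4.51 CPM in WT, 2.10 and 1.39 CPM in K450R, 2.31 and 2.28 CPM in K451R, and 3.86 and 1.47 CPM in K450RK451R, with Veh and Dox. The log2 fold changes were −0.45, −0.60, −0.020 and −1.39 (mean −0.61 ± 0.57, SD, n = 4), and only in K450RK451R did the counting interval exclude 0 (−2.27 to −0.56). With no scaling factor beyond the total count, the K451R value of IER3 turned to 0.11. PHLDA1, which encodes a pleckstrin homology-like domain protein, had 2 to 14 counts per condition.

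The luminal markers HOXB13 and TMPRSS2 also rose with Dox, with log2 fold changes of 0.19 ± 0.052 and 0.22 ± 0.051 (SE, edgeR adjusted p = 0.0492 and 0.0177). The other luminal markers reported here did not pass the test and lay on both sides of 0, with log2 fold changes of −0.20 for KRT8, −0.16 for KRT18, −0.11 for KLK2, 0.021 for KLK3 and 0.094 for FOLH1. The HOXB13 call was lost with DESeq2 (adjusted p = 0.0623) and with each line left out, and the TMPRSS2 call without K450R, K451R or K450RK451R (adjusted p = 0.141, 0.173 and 0.124). The 11 markers of other cell types summed to 41.5 to 53.4 CPM with Veh and 40.9 to 46.1 CPM with Dox. The part of either in the values of the members was not tested.

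Of the 6 members that passed the filter on low counts in the stable lines, 1 (DUSP4) was higher with Dox in all 4 lines and 2 (DUSP5 and IER3) were lower in all 4. Over all 14105 genes tested, 10.7% were higher and 10.1% lower in all 4 lines. No tested member had all 4 Dox values below all 4 Veh values, against 2.32% of all genes. DUSP6, SPRY2, SPRY4 and PHLDA1 did not pass this filter. Because the contrast entered the choice of the genes, these counts are a description.

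**Figure D3:**
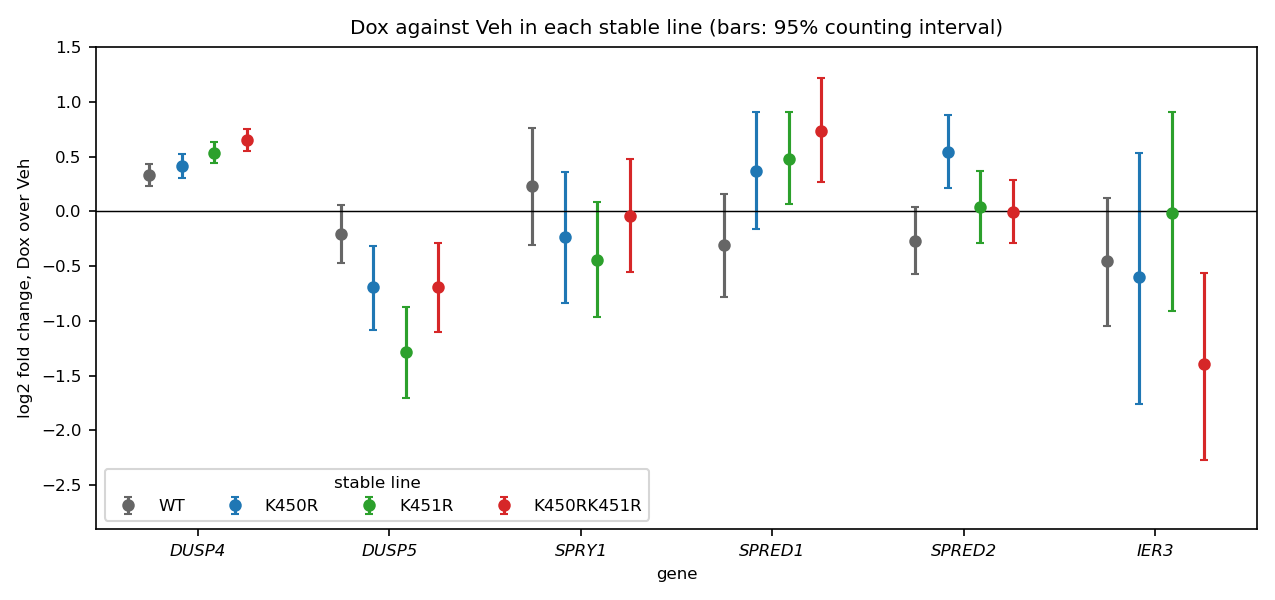
Log2 fold change of Dox over Veh in each stable line (colors) for the 6 members that passed the filter on low counts. Points are ratios of TMM-scaled counts and bars are 95% counting intervals, with no replicate of a condition. DUSP4 lies above 0 in all 4 lines (0.33 to 0.65) and DUSP5 lies below 0 (−1.28 to −0.21). SPRED1 is below 0 in WT and above 0 in the 3 mutant lines, with bars that include 0 in WT and K450R.

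To determine whether the feedback genes responded to loss of EHMT1, siEHMT1 was compared with siNTC. None of the 6 members tested changed at an adjusted p under 0.05 in edgeR's quasi-likelihood test (Benjamini-Hochberg over 14532 genes, of which 0.131% passed). DUSP4 and SPRED2 had the smallest p-values. DUSP4 was at 154.9 and 162.2 CPM with siNTC and at 137.7 and 134.4 CPM with siEHMT1, a log2 fold change of −0.22 ± 0.089 (SE, edgeR unadjusted p = 0.0223 and adjusted p = 0.429). The groups did not overlap. SPRED2 was at 24.5 and 26.5 CPM with siNTC and at 20.9 and 19.3 CPM with siEHMT1, again with the siEHMT1 samples below (log2 fold change −0.34 ± 0.14, SE, edgeR unadjusted p = 0.0290 and adjusted p = 0.450).

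Markers of other cell types had a summed level over 11 genes of 30.5 and 28.1 CPM in siNTC and of 40.4 and 40.7 CPM in siEHMT1. Only 3 of them passed the filter on low counts, and 0 passed an adjusted p of 0.05 in edgeR's test. An unadjusted p under 0.05 was reached by 2, both higher, against 9.55% of all genes in either direction. The part of these markers in the DUSP4 and SPRED2 values was not tested.

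These 2 of the 6 members had an unadjusted p under 0.05, against 9.55% of all genes tested and 5.09% in the lower direction. The count was 0 with DESeq2 and 1 without the second siNTC sample or without the second siEHMT1 sample. With siEHMT1 below siNTC in all samples, 19.8% of all genes were separated in the same way, and 19.9% with siEHMT1 above, so a lack of overlap between 2 and 2 samples is common here. No member that was tested had siEHMT1 above siNTC in this way. SPRED1 was at 8.31 and 8.498 CPM with siNTC and 11.8 and 6.87 CPM with siEHMT1. The siEHMT1 samples lay on either side of the controls, and the log2 fold change of 0.14 ± 0.25 (SE, edgeR adjusted p = 0.906) turned to −0.29 without the first siEHMT1 sample. DUSP5, at 3.02 and 2.17 against 2.71 and 3.83 CPM, had a log2 fold change of 0.30 ± 0.35 (SE, edgeR adjusted p = 0.842). SPRY1 and SPRY4 had log2 fold changes of −0.18 ± 0.26 and −0.60 ± 0.47 (SE), with edgeR adjusted p of 0.880 and 0.723. Both turned positive without the first siNTC sample (0.063 and 0.50), in which SPRY4 had 30 counts against 5 in the other.

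DUSP6, SPRY2, PHLDA1 and IER3 did not pass the filter on low counts. The PHLDA1 counts were 21 and 5 in the controls against 4 and 9 after knockdown, and its CPM values did not overlap (1.98 and 0.988 against 0.418 and 0.719). At these depths 3 counts, taken as the floor, correspond to 0.24 to 0.593 CPM, and DUSP6, SPRY2 and IER3 lay near it in part or all of the samples. In the fit without a filter on low counts, PHLDA1 had a log2 fold change of −1.46 ± 0.56 (SE, edgeR unadjusted p = 0.0188 and adjusted p = 0.667), and the other 3 genes had unadjusted p of 0.674 to 0.889.

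**Figure D4:**
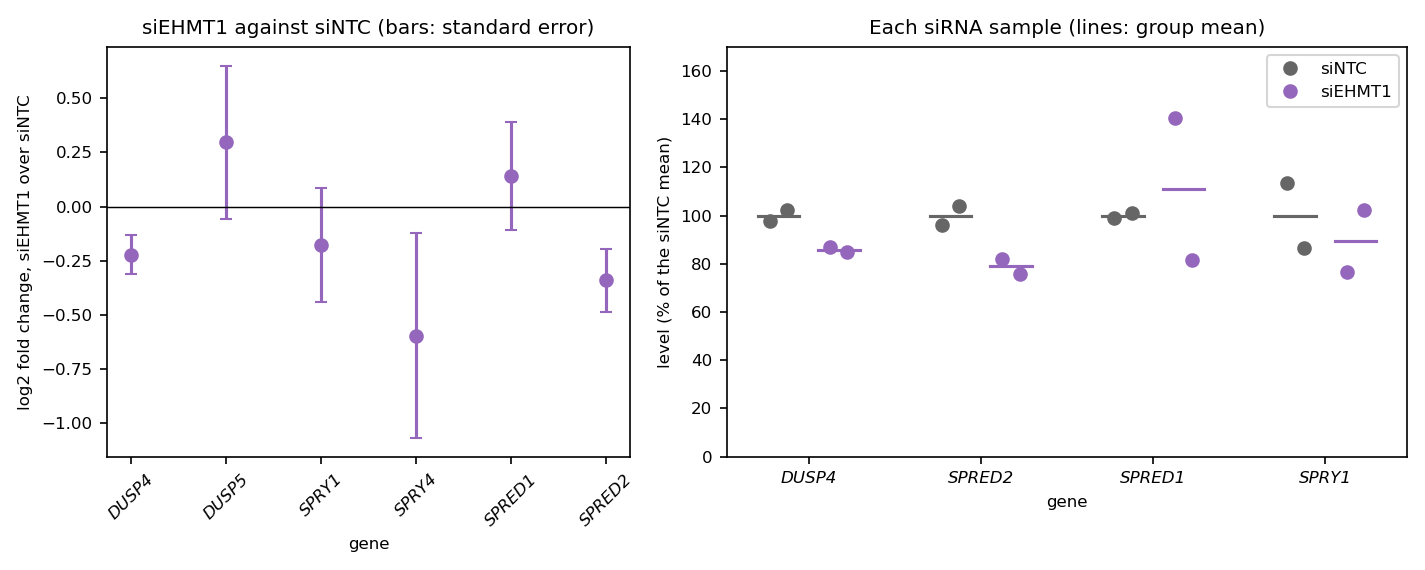
Left, log2 fold change of siEHMT1 over siNTC with its standard error for the 6 members that were tested. Right, level in each siRNA sample as a percentage of the siNTC mean for 4 of them, with lines at the group means. DUSP4 (log2 fold change −0.22) and SPRED2 (−0.34) do not overlap between the groups, whereas the siEHMT1 samples of SPRED1 and SPRY1 lie far apart.

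Set side by side, DUSP4 had a mean log2 fold change of 0.48 over 4 lines with Dox, described only. With siEHMT1 its log2 fold change was −0.22 (adjusted p = 0.429 from edgeR). The sign with Dox was set by the choice of DUSP4 and the siEHMT1 value did not pass the test, so nothing is read from the opposite signs. SPRED2 had a value of 0.078 ± 0.34 (SD, n = 4 lines) with Dox and −0.34 with siEHMT1. DUSP5 had −0.72 with Dox and 0.30 with siEHMT1, the latter within 1 standard error of 0. SPRED1 and SPRY1, the other members tested in both experiments, had the same sign in both. SPRED1 had 0.32 ± 0.44 (SD, n = 4 lines) with Dox and 0.14 with siEHMT1, and SPRY1 had −0.12 ± 0.29 and −0.18. IER3, near the floor in the siRNA samples, had −0.61 with Dox and −0.17 in the siEHMT1 fit without a filter on low counts.

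The other genes of the pathway were examined as 7 lists with 99 genes in all, from ligands to ERK output. These lists too were chosen with earlier results of these data known. With Dox, fitted over the 4 lines with line as a block, 1 of the 76 genes tested was higher and 4 were lower at an adjusted p under 0.05 in edgeR's test, and the median log2 fold change of the lists together was −0.0049 (0.0050 over all genes tested). Over all 14105 genes, 2.11% passed, 0.603% higher and 1.51% lower. The genes tested that lead from ligands to ERK were 51 (4 ligands, 10 receptors, 12 adaptors, 12 RAS genes and 13 genes of the RAF to ERK cascade). Of these, 0 passed the test, a share that is close to that over all genes. An unadjusted p under 0.05 in edgeR's test was reached by 6 of the 51, against 2032 of all 14105 genes. The 5 genes that passed were 3 ERK output genes and 2 other negative regulators, and whether the lists differ was not tested.

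Of the 9 other ERK output genes that were tested, 1 rose and 2 fell. MYC, a growth-promoting transcription factor, rose from 106, 114, 135 and 142 CPM with Veh to 134, 144, 207 and 209 CPM with Dox in WT, K450R, K451R and K450RK451R (log2 fold change 0.46 ± 0.062, SE, edgeR adjusted p = 3.6e-05). It was higher in 4 of 4 lines, as were 10.7% of all genes tested. FOS, the AP-1 subunit and a classical immediate-early gene, fell from 185, 120, 74.5 and 45.7 CPM to 170, 74.7, 38.6 and 32.8 CPM in the same order of lines (log2 fold change −0.53 ± 0.088, SE, edgeR adjusted p = 0.000664). IER2, another immediate-early gene, had a log2 fold change of −0.29 ± 0.078 (SE, edgeR adjusted p = 0.0424), and both were lower in 4 of 4 lines. FOS was no longer past the threshold with DESeq2 (adjusted p = 0.0846), and IER2 lost its call under 7 of the 10 alternatives, including the omission of K450R, K451R or K450RK451R.

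Among the 16 other negative regulators, 2 fell and none rose, and the median log2 fold change was −0.10, against 0.0050 over all genes tested. DUSP1, a stress-inducible nuclear phosphatase of p38, JNK and ERK, was at 511 and 578 CPM in WT, 599 and 503 CPM in K450R, 453 and 229 CPM in K451R, and 453 and 227 CPM in K450RK451R, with Veh and Dox (log2 fold change −0.51 ± 0.11, SE, edgeR adjusted p = 0.00934). It was lower in 3 of 4 lines and higher in WT. Its adjusted p was 0.0612 without K451R, 0.0909 without K450RK451R and 0.564 with DESeq2. DUSP10, a phosphatase of p38 and JNK, was lower in 4 of 4 lines (log2 fold change −0.34 ± 0.092, SE, edgeR adjusted p = 0.0469), a call that was lost under 9 of the 10 alternatives. The value over the lines was positive for DUSP4 and MYC and negative for DUSP5, IER3, FOS, IER2, DUSP1 and DUSP10. The Dox contrast entered the choice of the members, and DUSP4 was chosen for its rise, so nothing is read from these shared signs.

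**Figure D5:**
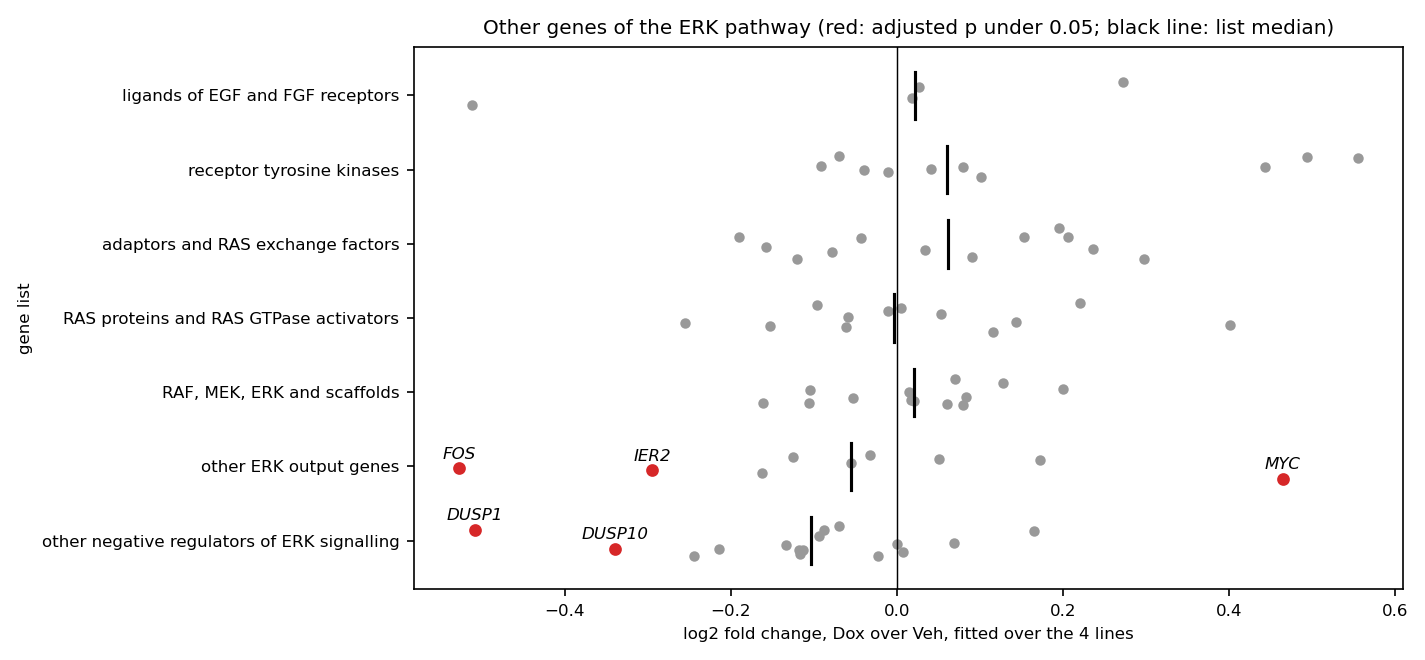
Fitted log2 fold change of Dox over Veh (horizontal axis) for each tested gene of the 7 pathway lists (rows), with genes at an adjusted p under 0.05 in red and list medians as black lines. The genes that passed are MYC (0.46) on the right and FOS, IER2, DUSP1 and DUSP10 (−0.53 to −0.29) on the left. No ligand, receptor, adaptor, RAS or cascade gene passed.

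With siEHMT1, none of the 77 pathway genes tested passed an adjusted p of 0.05 in edgeR's test. An unadjusted p under 0.05 was reached by 7 of them, all lower, against 9.55% of all genes in either direction and 5.09% in the lower one, and the median log2 fold change was −0.050, against −0.0021 over all genes. MYC was at 401 and 374 CPM with siNTC and 325 and 314 CPM with siEHMT1 (log2 fold change −0.28 ± 0.087, SE, edgeR adjusted p = 0.270), the same order of groups as DUSP4. The other genes that passed with Dox, all of them lower there, did not share a clear opposite direction with siEHMT1. Their log2 fold changes were −0.30 ± 0.25 (FOS), −0.12 ± 0.13 (IER2), −0.0056 ± 0.13 (DUSP1) and 0.090 ± 0.18 (DUSP10, SE for each).

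Outside the pathway, the genes whose log2 CPM across the 8 stable-line conditions was most like that of DUSP4 were ATP6V1E2, RMND5A, ZNF391, MOB3C and CKMT1A, among 10807 genes with a mean of at least 5 CPM. Their Pearson r was 0.934 to 0.948. RMND5A, the most abundant of them, was at 99.4 to 115 CPM with Veh and 116 to 129 CPM with Dox, a smaller difference than that of DUSP4. CKMT1A has a near-identical copy, and its count is uncertain. The correlations were picked as the highest of many over 8 conditions.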

How the data were processed

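Stranded total RNA libraries were read from 1 end and aligned to hg19. The submitters' processing notes name FastQC 0.11.9, STAR 2.7.2 and featureCounts 1.6.4. The annotation release and strand setting are not given in the sources used here, so reads of overlapping genes may be shared. The authors deposited raw counts per Ensembl gene in 2 tables, without normalization.

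Counts were analysed in R 4.3.3 with edgeR 4.0.16 (TMM, default filter on low counts, quasi-likelihood test). The siRNA samples were fitted alone. The stable-line columns were summed per condition and fitted with line as a block, the filter being set by treatment. P-values measure the spread between these samples, and the labels do not say whether the siRNA samples were separate cultures. Counting intervals are exact, at 95%, and cover counting error only, since they hold no spread between samples. Reads carry no molecular identifiers, so copies of a molecule may be counted more than once and the intervals may be too narrow. DESeq2 1.42.0 and limma-voom (limma 3.58.1) were alternatives. Exon lengths and positions come from GENCODE on GRCh37. Genes named are the 10 members, EHMT1, AC010970.2 (over 1% of a library and uneven within a group), pathway genes past an adjusted p of 0.05 and the 5 genes most like DUSP4, beside a few cell type markers. Some markers are not reported here. The members and lists were chosen with earlier results of these data known. The main edgeR fit of each experiment was tested on simulated counts, and the other procedures were not.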

Additional observations from a re-analysis of the deposited data

How the results depend on the processing

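The count of members past an adjusted p of 0.05 with siEHMT1 stayed at 0 under all 12 alternatives, and the log2 fold change of DUSP4 stayed between −0.26 and −0.19 under them. That of SPRED2 stayed between −0.40 and −0.28 under 11, DESeq2 giving it no adjusted p. Over all genes the siEHMT1 count of 19 became 12 with DESeq2, 12 without a filter on low counts and 118 with the replicate block, and 38 to 110 with each sample left out. Same-numbered siRNA samples showed no shared deviation (Pearson correlation −0.00518, 2 pairs), but 2 pairs cannot settle whether the samples were paired. The replicate block changed no call of a member. Signs turned without the first siNTC sample for SPRY1 (0.063) and SPRY4 (0.50), and without the first siEHMT1 sample for SPRY1 (0.011) and SPRED1 (−0.29). With each sample left out the range was −1.01 to 0.50 for SPRY4 and −0.29 to 0.49 for SPRED1. The Dox count of 298 genes became 140 with DESeq2 and 1900 with the 16 columns as separate samples and a replicate block, and ranged from 114 to 501 with each line left out, the lowest without K451R (114) and K450R (122) and the highest without WT. The cause of these shifts was not tested. The fitted Dox log2 fold change of DUSP4 stayed between 0.43 and 0.53, that of DUSP5 between −0.88 and −0.47 and that of IER3 between −0.76 and −0.36. SPRED2, at 0.065, lay between −0.079 and 0.18, and MYC kept its call under all 10 alternatives (adjusted p up to 0.000765 from these tools). With no scaling factor beyond the total count, the median of all genes shifted to 0.13 in K451R and 0.14 in K450RK451R, and the DUSP4 values became 0.67 and 0.79, which relative to that shift leaves the order of the lines as it was. Low depth limits DUSP6, SPRY2, SPRY4 and PHLDA1.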
